A study of Mus musculus with 6 samples.

Results

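Nucleotide synthesis enzymes make and trim the precursors of DNA and RNA, and 9 of them were examined here in injured kidney tubule cells in which Sox9 had been knocked down. They were chosen by name from the 30315 genes listed in the expression table: Rrm1, Rrm2, Rrm2b, Tyms, Tk1, Dut, Dck, Ctps and Cad. All 9 were listed, and all 9 passed the filter of a mean of at least 1 FPKM over the libraries that 12009 genes passed. FPKM is the number of sequenced fragments of a gene, scaled to the length of its exons in kilobases and to the fragments of the whole library. The 9 genes were split into 5 enzymes whose transcripts are known to be made mainly around S phase (Rrm1, Rrm2, Tyms, Tk1 and Dut) and 4 others. Those 4 (Rrm2b, Dck, Ctps and Cad) are called constitutive here, as enzymes less bound to S phase. How any of the 9 varies over the cell cycle was not measured in these samples.

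The cells were primary renal tubular epithelial cells (TECs) of C57BL/6 mice, grown to about 50% confluence. Of the 6 libraries, 3 came from TECs transfected with siSox9, an siRNA against Sox9, and 3 from TECs transfected with the control siRNA siNC. Both groups received their siRNA 12 h before hypoxia and reoxygenation (H/R), which was 6 h at 1% oxygen in medium without glucose and then 18 h of reoxygenation. All 6 libraries were thus from H/R cells, and neither uninjured cells nor a rescue with Sox9 nor a further siRNA was among them, so an effect of Sox9 loss and an effect of this siRNA on other targets cannot be told apart. The labels do not say whether the 3 libraries of a group were separate cultures or separate mice, so the p-values measure the spread between these libraries, which may be technical. Primary TECs can hold more than 1 cell type, and in bulk RNA fewer cells of a type and less RNA per cell cannot be told apart.

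Ribonucleotide reductase turns ribonucleotides into deoxyribonucleotides and is built from a large catalytic subunit, RRM1, and a small subunit, which is RRM2 in dividing cells and the p53-inducible RRM2B in resting or damaged cells. The thymidylate branch then makes dTTP, either from dUMP through thymidylate synthase (TYMS), with dUTPase (DUT) supplying dUMP and keeping dUTP out of DNA, or from salvaged thymidine through thymidine kinase 1 (TK1). CAD and CTP synthase (CTPS) work further upstream, in the new synthesis of pyrimidines that both RNA and DNA need, and deoxycytidine kinase (DCK) salvages deoxynucleosides. A tubule that regrows after injury has to copy its DNA, which is why these enzymes are of interest after H/R.

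Only short promoter stretches are shown here as sequence, because the 2 subunits of ribonucleotide reductase that fell most among the 9 enzymes shared a short word that the other promoters searched did not hold. RefSeq promoters on GRCm38.p6, 250 bases before to 50 bases after each start site, were found for 8 of the 9 genes (Ctps had 2 promoters, and Rrm2b had no entry). The word CCAAT, searched on both strands, is bound by the factor NF-Y and is present in many cell cycle promoters. It was found at 2 places before Rrm1, starting 91 and 45 bases before the start site, and once before Rrm2, starting 50 bases before it. The 3 matches follow with their surroundings, on the + strand and with CCAAT in capitals, at chr7:102441593-102441619, chr7:102441639-102441665 and chr12:24708193-24708219.
Rrm1, first match: cttgcccacacCCAATatggcggcagg
Rrm1, second match: tccgctttcacCCAATgtggtggaaag
Rrm2: gtcagcggcgtCCAATgggaggcgagg
CCAAT is common, since 37.4% of the 32851 promoters of this table hold it in either direction. Here 2 of the 8 genes with a promoter did so, which is not a higher share. A link between the word and the size of the fall was not tested. E2F factors drive many S-phase genes, but none of the 8 genes held one of the 4 E2F words searched (TTTCCCGC, TTTCGCGC, TTTGCCGC and TTTGGCGC, both strands), which 2.26% of all promoters hold. The word TTTGAA of the cell cycle homology region (CHR), or its reverse complement, was found only in the promoter of Dck, 245 bases before the start site, against 17.9% of all promoters. A missing word says only that these letters are not in this window, and no binding was measured in these samples.

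Sox9 itself was lower in every siSox9 library, at 8.93, 8.61 and 9.07 FPKM against 25.7, 26.5 and 25.6 FPKM with siNC, which left 34.2% of the control level (log2 fold change -1.45, SE 0.03, limma adjusted p = 7.03e-06). Across all genes tested, 3650 of 12009 passed an adjusted p under 0.05, which is 30.4%. Of these, 2118 genes (17.6% of those tested) were lower and 1532 (12.8%) were higher with siSox9, and the median gene lay at -0.01 on the log2 scale. Centring each library on its median turned this split to 1765 lower and 1959 higher. The groups did not overlap in 46.3% of all genes tested. Library depth, inferred as the total at which the FPKM values gave whole reads, was between 23893197 and 25725742 fragments. The reads recovered for single genes summed to more than this total in every library, to between 25271437 and 27211181. Neither the totals nor these sums separated the groups.

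The tubular epithelial markers Krt8, Krt18, Epcam, Cdh1, Pax8 and Cdh16 were all measured, and their summed level was 3755 to 3913 FPKM with siSox9 and 3592 to 3794 FPKM with siNC. Only Cdh16 of the 6 passed the test (log2 fold change 0.36, SE 0.03, limma adjusted p = 0.000307). The proximal tubule markers Slc34a1 and Slc5a2 were at or near 0 in all 6 libraries, and Lrp2 reached 2.06 to 2.58 FPKM. Macrophage genes were present: of the 5 immune markers 4 were tested, and Lyz2, a lysozyme, rose from 71.9 ± 3.78 to 83.4 ± 3.91 FPKM (SD, n = 3 each, limma adjusted p = 0.0175). The 5 immune markers summed to 103 to 114 FPKM with siSox9 and to 92.2 to 98.7 FPKM with siNC, most of it Lyz2. Csf1r at 9.38 against 9.66 FPKM, Cd68 at 11.8 against 10.9 FPKM and Adgre1 at 2.43 against 2.22 FPKM (means, siSox9 against siNC) did not pass the test, and Ptprc, at 0.653 against 0.724 FPKM, was under the filter. Of the podocyte markers, Nphs1 was listed at 0 in all 6 libraries, and Podxl fell by 0.57 on the log2 scale (SE 0.04, limma adjusted p = 0.000158). No distal tubule or collecting duct marker of 6 reached the filter. Only 1 of 6 fibroblast and 1 of 4 endothelial markers reached it, and neither passed the test, with sums of 6.45 to 7.95 against 7.99 to 9.09 FPKM and of 2.76 to 2.99 against 3.15 to 4.01 FPKM (siSox9 against siNC). Without a filter, 1 of the 4 endothelial and 0 of the 6 fibroblast markers were called lower, and 0 of either higher. With limma voom on recovered reads, the 1 fibroblast marker tested was called lower and the 1 endothelial marker was not. The part of any change in cell mixture in the results below was not tested.

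Of the 9 enzymes, 7 were lower with siSox9, Ctps was higher and Rrm2b did not pass the test, beside 17.6% of all genes lower and 12.8% higher. The siSox9 and siNC libraries did not overlap in 8 of the 9, beside 46.3% of all genes tested. All 5 S-phase regulated enzymes fell, with log2 fold changes between -1.09 and -0.25 and a median of -0.64. The 4 constitutive enzymes lay between -0.32 and 0.12 with a median of -0.05, and among them Dck and Cad fell. The call for Cad did not hold under most other settings.

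**Figure D1:**
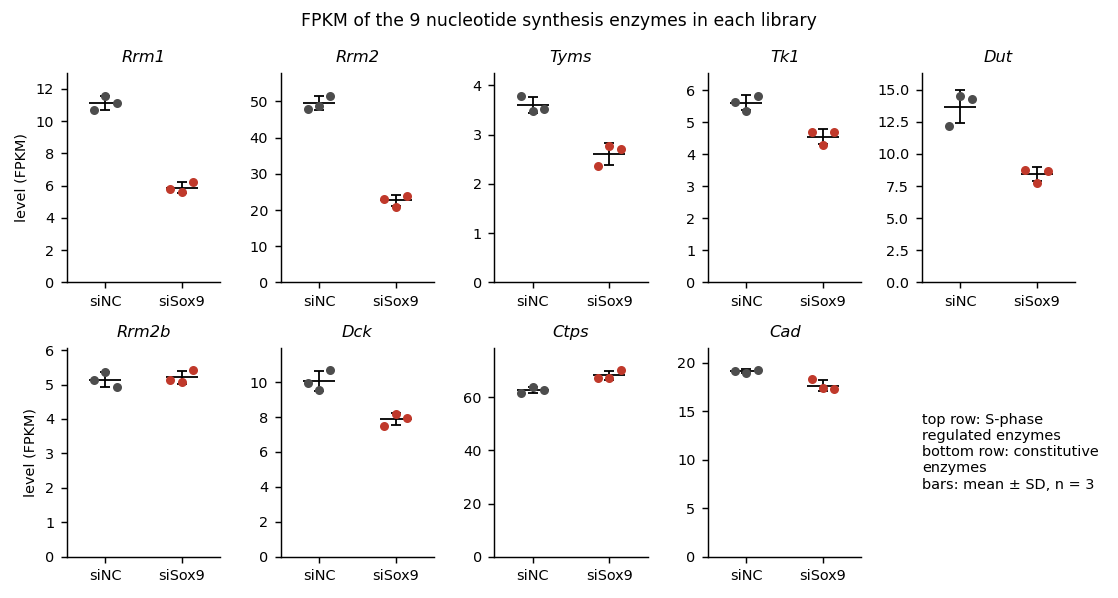
Level of each of the 9 enzymes in FPKM (y axis, from 0, scaled per gene) in the 3 siNC libraries (grey) and the 3 siSox9 libraries (red), with the group mean ± SD in black. The red points lie below the grey ones for Rrm1, Rrm2, Tyms, Tk1, Dut, Dck and Cad, above them for Ctps, and among them for Rrm2b.

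Rrm2 (ENSMUSG00000020649, GRCm38 chr12:24708241-24714146, + strand, 10 exons in its principal mRNA) encodes the small subunit that limits ribonucleotide reductase in dividing cells, and it fell most of the 9. Its level was 23.1, 20.96 and 24.0 FPKM in the siSox9 libraries and 47.9, 48.9 and 51.6 FPKM in the siNC libraries. The highest siSox9 library was thus at about 24 FPKM and the lowest control at about 48 FPKM, with no overlap. The mean fell from 49.5 ± 1.91 to 22.7 ± 1.54 FPKM (SD, n = 3 each), to 45.8% of the control, with a log2 fold change of -1.09 (SE 0.05, 95% interval -1.22 to -0.97, limma adjusted p = 6.03e-05). By size of fall it ranked 11 among the 12009 genes tested. These values rest on 1475 to 3553 recovered reads per library.

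Rrm1 (ENSMUSG00000030978, chr7:102441695-102469771, + strand, 19 exons in its principal mRNA) encodes the large subunit, which carries the catalytic and regulatory sites. It was at 5.79, 5.58 and 6.24 FPKM with siSox9 and at 10.7, 11.6 and 11.1 FPKM with siNC. The 2 groups were well apart, with each siSox9 library far under every control. The mean fell to 52.7% of the control, a log2 fold change of -0.82 (SE 0.05, 95% interval -0.94 to -0.71, limma adjusted p = 9.90e-05), which ranked 37 among all genes tested.

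Rrm2b (ENSMUSG00000022292, chr15:37923952-37961318, - strand) encodes the alternative small subunit that p53 induces. It was at 5.13, 5.08 and 5.42 FPKM with siSox9 and at 5.13, 5.37 and 4.92 FPKM with siNC. The libraries of both groups were mixed, and the log2 fold change was 0.02 (SE 0.05, 95% interval -0.09 to 0.12, limma adjusted p = 0.814). The interval lies wholly above that of Rrm2. The exons of Rrm2b share 734 bases, or 8.04% of their length, with the antisense gene Gm49085, which the table does not list, and an intronic processed pseudogene, Gm3362, was at 120 to 149 FPKM. The strand setting of the counting is not given, so reads of Rrm2b and of its antisense partner cannot be told apart.

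The balance of the subunits can be read within each library, where the scaling between libraries drops out. Rrm2 per Rrm2b was 4.50, 4.12 and 4.42 with siSox9 and 9.34, 9.09 and 10.5 with siNC, a log2 change of -1.15. Rrm2 per Rrm1 was 3.99, 3.76 and 3.84 with siSox9 and 4.48, 4.22 and 4.63 with siNC, a log2 change of -0.20. In both ratios every siSox9 library lay below every control library, and the exact two-sided permutation p was 0.1 for each (0.167 after Benjamini-Hochberg adjustment over the 5 ratios tested), which is the smallest that 3 libraries against 3 can give. Within these libraries the mRNA of the small subunit of dividing cells was thus lower relative to that of the large subunit and to that of the alternative small subunit.

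In the thymidylate branch the falls were smaller. Dut (ENSMUSG00000027203, chr2:125247190-125258608, + strand) encodes dUTPase. It was at 8.76, 7.78 and 8.68 FPKM with siSox9 and at 12.2, 14.5 and 14.3 FPKM with siNC. All siSox9 libraries were below all controls, with siNC replicate 1 the lowest of its group. The mean fell to 61.5% of the control, with a log2 fold change of -0.64 (SE 0.07, 95% interval -0.81 to -0.47, limma adjusted p = 0.000973).

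Tyms (ENSMUSG00000025747, chr5:30058202-30073617, - strand) encodes thymidylate synthase, the target of fluorouracil, and was the lowest of the 9 on the FPKM scale. It was at 2.36, 2.77 and 2.71 FPKM with siSox9 and at 3.79, 3.48 and 3.53 FPKM with siNC. The groups did not overlap, although only 369 to 573 reads per library stand behind these values. The mean fell to 72.6% of the control, with a log2 fold change of -0.35 (SE 0.06, 95% interval -0.49 to -0.20, limma adjusted p = 0.00575). Because 1 is added before the logarithm, this scale understates the change of so low a gene, and with a pseudocount of 0.1 the log2 fold change was -0.45.

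Tk1 (ENSMUSG00000025574, chr11:117815526-117826092, - strand) encodes the cytosolic thymidine kinase used as a proliferation marker. It was at 4.68, 4.30 and 4.69 FPKM with siSox9 and at 5.63, 5.36 and 5.83 FPKM with siNC. Again every siSox9 library lay below every control library, by a small margin. The mean fell to 81.2% of the control, the smallest fall of the 5 S-phase enzymes, with a log2 fold change of -0.25 (SE 0.05, 95% interval -0.36 to -0.14, limma adjusted p = 0.0083). Tk1 shares 83 exon bases with Afmid on the other strand, a gene at 0.355 to 0.671 FPKM.

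Among the 5 S-phase enzymes, the 95% interval of the fall of Rrm2 lay wholly beyond those of Rrm1, Dut, Tyms and Tk1 on the log2(FPKM + 1) scale. This scale understates the falls of low genes. With a pseudocount of 0.1 the log2 fold change was -0.91 for Rrm1 and -1.12 for Rrm2. Tyms per Dut was 0.269, 0.357 and 0.312 with siSox9 and 0.311, 0.239 and 0.247 with siNC, with overlapping groups (log2 change 0.23, exact two-sided permutation p = 0.2, adjusted 0.25). A different fall of the 2 thymidylate enzymes was not seen, and 3 libraries against 3 cannot give a p under 0.1 in this test.

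Among the constitutive enzymes, Dck (ENSMUSG00000029366, chr5:88764996-88783281, + strand) encodes deoxycytidine kinase, which phosphorylates salvaged deoxynucleosides. It was at 7.49, 8.19 and 7.96 FPKM with siSox9 and at 9.97, 9.55 and 10.7 FPKM with siNC. Each siSox9 library was below each control. The mean fell to 78.2% of the control, with a log2 fold change of -0.32 (SE 0.05, 95% interval -0.44 to -0.20, limma adjusted p = 0.00388), which lies between Tyms and Tk1. Tk1 per Dck was 0.625, 0.525 and 0.589 with siSox9 and 0.565, 0.561 and 0.545 with siNC, with overlapping groups. A larger fall of Tk1 than of Dck was thus not seen (log2 change 0.05, exact two-sided permutation p = 0.5, adjusted 0.5, where 0.1 is the smallest possible). The sign of this log2 change turned to -0.00316 without siSox9 replicate 1. Dck is not the isoenzyme of Tk1. Relative to Tk2, the mitochondrial thymidine kinase, Tk1 was lower, at 0.632 to 0.701 with siSox9 and 0.914 to 0.974 with siNC, a ratio that was not tested.

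Cad (ENSMUSG00000013629, chr5:31054780-31078479, + strand, 44 exons in its principal mRNA) encodes the large protein that carries out the first steps of pyrimidine synthesis. It was at 18.3, 17.4 and 17.2 FPKM with siSox9 and at 19.2, 18.9 and 19.2 FPKM with siNC. The groups were close but did not overlap. The log2 fold change was -0.11 (SE 0.03, 95% interval -0.19 to -0.03, limma adjusted p = 0.044), and the call was lost in 10 of 14 alternative fits, with adjusted p-values from 0.0242 to 0.316 over all of them.

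Ctps (ENSMUSG00000028633, chr4:120539868-120570276, - strand) encodes CTP synthase, which makes CTP from UTP, and it was the only one of the 9 that rose. It was at 67.3, 67.3 and 70.3 FPKM with siSox9 and at 61.6, 63.8 and 62.7 FPKM with siNC. All 3 siSox9 libraries were above all 3 controls. The log2 fold change was 0.12 (SE 0.03, 95% interval 0.05 to 0.19, limma adjusted p = 0.024), with adjusted p-values from 0.0131 to 0.0715 over the alternatives. The call was lost when any siSox9 library or siNC replicate 3 was left out.

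These 2 enzymes of pyrimidine synthesis moved apart within each library. Cad per Ctps was 0.271, 0.258 and 0.245 with siSox9 and 0.311, 0.296 and 0.307 with siNC, without overlap (log2 change -0.24, exact two-sided permutation p = 0.1, adjusted 0.167, where 0.1 is the smallest possible).

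**Figure D2:**
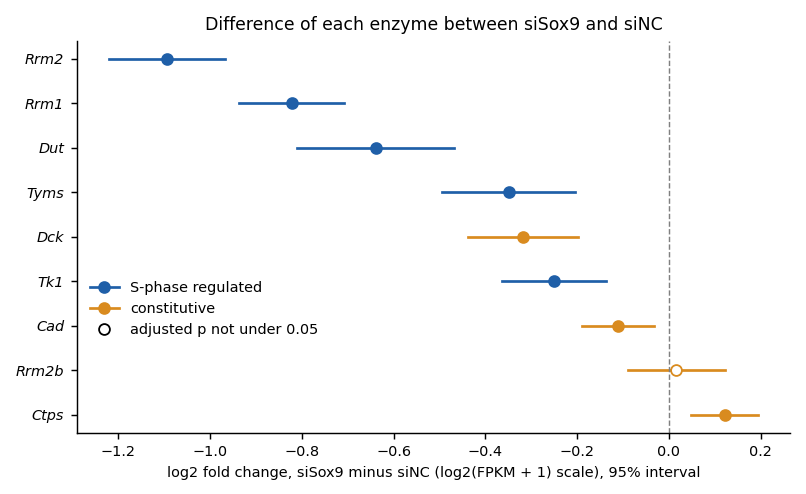
Difference of each enzyme between siSox9 and siNC (x axis, log2 fold change on the log2(FPKM + 1) scale), with its 95% interval as a line, from limma over 3 libraries a group. The S-phase regulated enzymes (blue) lie between -1.09 and -0.25 and the constitutive ones (orange) between -0.32 and 0.12, and the open point of Rrm2b marks the 1 enzyme that did not pass the test.

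**Figure D3:**
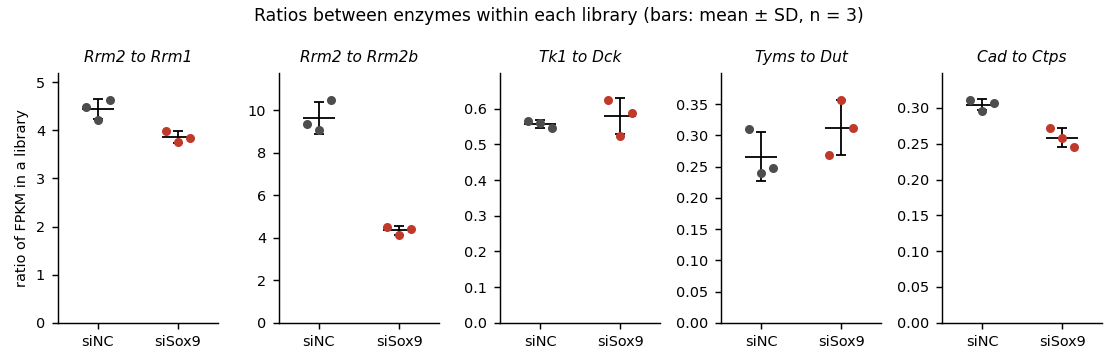
Ratio of FPKM between 2 enzymes within each library (y axes, from 0), for 3 siNC (grey) and 3 siSox9 (red) libraries with mean ± SD in black. Rrm2 to Rrm2b falls from 9.64 to 4.35 on average, Rrm2 to Rrm1 and Cad to Ctps fall by less, and the groups overlap for Tk1 to Dck and for Tyms to Dut.

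On the FPKM scale the order of the levels also changed. In siNC libraries the FPKM ran from Ctps at 62.7 over Rrm2 at 49.5, Cad at 19.1, Dut at 13.7, Rrm1 at 11.1 and Dck at 10.1 to Tk1 at 5.61, Rrm2b at 5.14 and Tyms at 3.60. Of these neighbours, only Tk1 and Rrm2b overlapped in their libraries. With siSox9, Rrm1 at 5.87 FPKM had dropped below Dck at 7.88, and Tk1 at 4.55 FPKM below Rrm2b at 5.21. There the libraries of Dut and Dck overlapped and those of the other neighbours did not.

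How the enzymes rank against each other depends on the exon length used. The FPKM values of 8 of the 9 gave whole reads with the merged exons of all GENCODE M21 transcripts, which for Rrm1 are 11012 bases although its principal mRNA has 3997, and for Tk1 5198 although its principal mRNA has 1440. For Rrm2b no whole reads came out with the 9134 bases of M21. Of the lengths searched 2 gave them, and the shorter, 6437 bases, was used. The level and place of Rrm2b on the scale that follows are thus not settled. With the same reads scaled to the length of the principal mRNA instead, the siNC levels in FPKM were 76.9 for Ctps, 62.5 for Rrm2, 30.7 for Rrm1, 21.9 for Cad, 20.2 for Tk1, 16.9 for Dut, 12.4 for Dck, 7.26 for Rrm2b and 6.93 for Tyms. On this scale Rrm1 moved ahead of Cad and Dut, and Tk1 ahead of Dut and Dck. With principal mRNA lengths Rrm1 stayed above Dck, and Tk1 above Rrm2b, in the siSox9 libraries too. The crossings of these genes given above thus belong to the FPKM scale.

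The genes with the library pattern most like that of the 5 S-phase enzymes were Nceh1, Rusc1, Nasp, Efhd1 and Dpy19l1, each with a Pearson's r of 0.999 against the mean z-score of the 5 over the 6 libraries. Nasp, a histone chaperone, was at 9.04, 8.82 and 9.20 FPKM with siSox9 and at 12.1, 12.2 and 12.3 FPKM with siNC. With 2 groups of 3 libraries, any gene that differs between the groups with little spread reaches a high r, and 937 genes outside the 9 had an r of at least 0.95.

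Around these 9 enzymes, the rest of nucleotide metabolism was counted from lists. Of 67 further genes in 5 lists, 66 were listed and 58 were tested. With siSox9, 17 of the 58 (29.3%) were lower, 9 (15.5%) were higher and 32 did not pass. Over all genes tested 17.6% were lower and 12.8% higher, so the share of rises was near that of all genes. The median log2 fold change was -0.05, beside -0.01 over all genes tested. These counts are sensitive to single libraries. Only 9 were lower without siSox9 replicate 1, siSox9 replicate 2 or siNC replicate 2 and 11 without siNC replicate 3. Only 3 were higher without siSox9 replicate 2, and 4 without siSox9 replicate 3 or siNC replicate 3.

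Among 15 other dNTP and thymidylate enzymes tested, 7 (46.7%) fell and 2 (13.3%) rose, beside 17.6% and 12.8% of all genes, with a median of -0.11. Only 3 were called lower without siSox9 replicate 1 or 2, without siNC replicate 2 or 3, or without a filter. Dnph1, which hydrolyses modified deoxynucleotides, fell by 0.51 on the log2 scale (SE 0.10, limma adjusted p = 0.0102). The 2 that rose were Nt5c, a deoxyribonucleotidase, by 0.28 (SE 0.04, limma adjusted p = 0.00337), and Tk2, the mitochondrial thymidine kinase, by 0.18 (SE 0.05, limma adjusted p = 0.0324).

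All 3 other enzymes of pyrimidine synthesis had lower means with siSox9, and 2 passed the test, beside 17.6% of all genes lower. None of the 3 was called without a filter or without siSox9 replicate 1, siSox9 replicate 2 or siNC replicate 2. Umps, which makes UMP, fell by 0.25 on the log2 scale (SE 0.07, limma adjusted p = 0.0258), and Ctps2, the second CTP synthase, fell by 0.15 (SE 0.04, limma adjusted p = 0.0256) while Ctps rose. Among 13 purine enzymes 4 (30.8%) fell, beside 17.6% of all genes, led by Prps1, a PRPP synthetase (log2 fold change -0.31), and Pfas (-0.22), and 3 (23.1%) rose, beside 12.8% of all genes, led by Adss (0.29) and Atic (0.13), with a median of -0.10. Only 1 of the purine enzymes was called higher without siSox9 replicate 2, siSox9 replicate 3 or siNC replicate 3, and 2 were called lower on the TPM scale.

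Of 13 one-carbon and folate enzymes, 3 (23.1%) fell, which is near the 17.6% of all genes, and the other 10 did not pass (median -0.07). Shmt2, the mitochondrial serine hydroxymethyltransferase, was at 23.1, 24.0 and 23.7 FPKM with siSox9 and at 41.8, 40.5 and 37.8 FPKM with siNC. Its fall (log2 fold change -0.74, SE 0.04, limma adjusted p = 8.85e-05) lay between those of Rrm1 and Dut. Ggh, a folate hydrolase, fell by 0.23 on the log2 scale. The highest log2 fold change of this list was 0.12.

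Of the 14 salvage and breakdown enzymes tested, 4 (28.6%) rose, 1 (7.14%) fell and 9 did not pass (median 0.02), beside 12.8% of all genes higher and 17.6% lower. Only 1 was called higher without siSox9 replicate 2 or siNC replicate 3, and 2 without siSox9 replicate 3, siNC replicate 1 or a filter. Pnp, the purine nucleoside phosphorylase, rose by 0.28 on the log2 scale (SE 0.05, limma adjusted p = 0.00742), and Hprt, which salvages hypoxanthine and guanine, by 0.20 (SE 0.05, limma adjusted p = 0.0295). The 1 that fell was Cda, cytidine deaminase, at 3.12, 3.31 and 3.40 FPKM with siSox9 and at 7.12, 7.64 and 6.57 FPKM with siNC. It had the largest fall of these 58 genes (log2 fold change -0.92, SE 0.06, limma adjusted p = 0.000106), between Rrm2 and Rrm1.

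**Figure D4:**
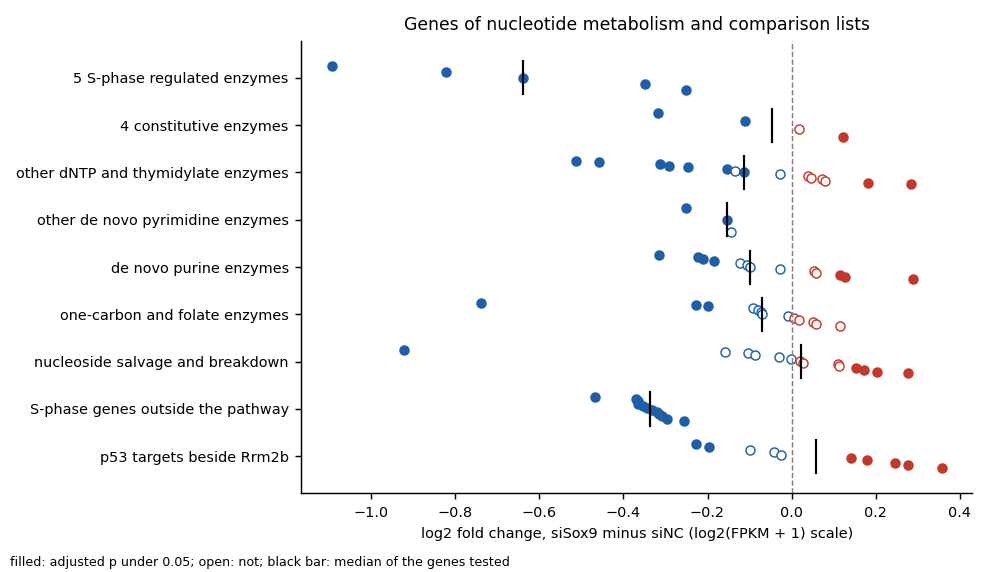
Log2 fold change between siSox9 and siNC (x axis, log2(FPKM + 1) scale) of each gene tested in the 9 enzymes, in 5 other lists of nucleotide metabolism, in S-phase genes outside it and in p53 targets (rows), with filled points for an adjusted p under 0.05 and a black bar at each list's median. The medians lie at -0.64 for the S-phase regulated enzymes, -0.34 for S-phase genes outside the pathway and between -0.15 and 0.06 for the other lists.

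The S-phase enzymes were set beside S-phase genes that make no nucleotides. All 12 of those listed, Pcna, Mcm2 to Mcm7, Cdc6, Cdt1, Gins2, E2f1 and Ccne2, were lower with siSox9, beside 17.6% of all genes, and the groups did not overlap for any of them, beside no overlap in 46.3% of all genes. Their log2 fold changes lay between -0.47 and -0.26 with a median of -0.34. On this log2(FPKM + 1) scale the largest falls were those of Mcm5 (-0.47, SE 0.04, limma adjusted p = 0.000221) and Mcm2 (-0.37, SE 0.05, limma adjusted p = 0.00138), both parts of the replicative helicase. The scale understates low genes. By group means Gins2 fell to 68.9% of the control and Mcm5 to 70.5%, and E2f1 to 74.8% and Mcm2 to 75.5%. On the log2 scale Tyms at -0.35 lay within the range of these 12 genes and Tk1 at -0.25 just outside it. Rrm2 at -1.09, Rrm1 at -0.82 and Dut at -0.64 lay beyond the largest of these falls. Whether the enzymes differ from these 12 genes was not tested. In the 14 alternative fits 10 to 12 of the 12 fell, except that only 8 were tested at a minimum of 5 FPKM, and all 8 fell there.

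The p53 targets were followed because Rrm2b is one of them. Of 10 such genes, 5 rose, 2 fell and 3 did not pass, beside 12.8% of all genes higher and 17.6% lower, so the share of falls was near that of all genes. Cdkn1a, the inhibitor of cyclin-dependent kinases p21, was at 297, 294 and 292 FPKM with siSox9 and at 233, 228 and 228 FPKM with siNC (log2 fold change 0.36, SE 0.03, limma adjusted p = 0.000192). Bax, a pro-apoptotic gene, rose by 0.28 on the log2 scale (SE 0.03, limma adjusted p = 0.000857). Sesn1 fell by 0.23 (SE 0.06, limma adjusted p = 0.0214) and Eda2r by 0.20 (SE 0.05, limma adjusted p = 0.022). These 2 falls were lost in several alternative fits, with 0 of the 10 called lower on the TPM scale, where the 5 rises were still called. Rrm2b at 0.02 lay between the risen and the fallen targets.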

How the data were processed

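RNA-Seq was analysed in 6 libraries of H/R-treated mouse primary TECs, 3 with siSox9 and 3 with siNC. The values are FPKM, as the authors deposited them, with 1 column a library and no added scaling between libraries. The submitters' processing notes name Bowtie2 2.2.3, HISAT2 2.1.0, TopHat2 and the build mm9 without saying what each was used for. The positions in the table are those of GRCm38, with 93.3% of genes placed as in GENCODE M21. The counter, annotation and strand setting are not given in the sources used here. The 3 siSox9 columns are named after a non-control siRNA, and the labels hold no such siRNA but siSox9. All 6 columns of values were used.

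The test was limma (version 3.58.1, R 4.3.3; lmFit, then eBayes with its trend option), run on log2(FPKM + 1) for the 12009 genes whose mean reached 1 FPKM, with Benjamini-Hochberg adjusted p under 0.05 over all of them and no replicate block, since the study's statistics name an unpaired test. Fold changes are on that scale and understate those of low genes. Ratios within libraries were compared with exact two-sided permutation tests. Whole reads were recovered with GENCODE M21 exon lengths. Per library, 93.3% to 93.4% of values, and 91.0% to 91.1% of values above 0, lay within 0.02 of a whole read. This held in all 6 libraries for 27946 genes, values of 0 included. The recovered reads served for depth and for limma voom as an alternative, where Rrm2b entered with reads rounded from its M21 length. Further alternatives changed the pseudocount (0.1), the filter (none, or 5 FPKM), the scaling (TPM, medians centred, quantiles matched) or the design (replicate block, 1 library left out). The fits were first tested on simulated reads.

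The 9 enzymes and all gene lists were chosen with earlier results of these data known. Named beside them are Sox9, in each list the 2 largest falls and 2 largest rises past the threshold without overlap of the groups, and the 5 genes most alike in pattern. Other names were chosen after their values were seen. Some genes of the lists are counted but not reported here by name. Promoter words were searched in RefSeq promoters. Permutation tests used scipy 1.17.1, and figures used matplotlib 3.10.9, in Python 3.11.15. Protein sequences and the siRNA sequences were not used here.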

Additional observations from a re-analysis of the deposited data

How the results depend on the processing

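The 5 S-phase enzymes and Dck were called lower, and Sox9 too, in each alternative fit in which they were tested (Tyms was not tested at a minimum of 5 FPKM). Cad lost its call without a filter, on the TPM scale, in median-centred and quantile-normalized values, with the replicate block and without any library but siSox9 replicate 1. The log2 fold change of Rrm2b lay between -0.00943 and 0.0436 when 1 library was left out, below 0 without siSox9 replicate 3 (-0.00769) or siNC replicate 3 (-0.00943), and passed no test. Leaving out single libraries gave 2431 to 3653 genes called (2431 without siSox9 replicate 2), 6 to 7 of the 9 enzymes lower and 0 to 1 higher, and 9 to 14 lower and 3 to 7 higher genes of the wider pathway. The pathway genes called lower were 9 without a filter, 11 at a minimum of 5 FPKM and 10 on the TPM scale. The other alternatives called 2571 to 4241 genes. With the replicate block 3262 genes were called, with 6 of the 9 enzymes lower and Ctps higher. Same-numbered libraries did not deviate together (correlations 0.0649, -0.0504 and 0.00784), so the numbers were not taken as pairs. The ratio of Tk1 to Dck ranged from -0.00316 to 0.12 on leaving out a library, with the sign turned without siSox9 replicate 1, and the other 4 ratios kept their direction. Their leave-one-out ranges were -0.24 to -0.17 for Rrm2 to Rrm1, -1.19 to -1.09 for Rrm2 to Rrm2b, 0.13 to 0.35 for Tyms to Dut and -0.28 to -0.20 for Cad to Ctps. The cause of these shifts was not tested. Tyms rests on the fewest reads of the 9, 369 to 573 per library, and Dut had the largest standard error, 0.07.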

Other observations

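Several steps of nucleotide metabolism are shared by isoenzymes, and 11 such pairs, chosen after the values were seen, were compared as ratios of FPKM within each library. In 7 of the 11 the siSox9 and siNC libraries did not overlap, beside 46.3% of single genes tested. The share over ratios of any 2 genes was not computed. The cytosolic to mitochondrial thymidine kinase ratio, Tk1 to Tk2, was 0.632 to 0.701 with siSox9 and 0.914 to 0.974 with siNC. Dck to Dguok, the cytosolic to mitochondrial deoxynucleoside kinases, was 2.02 to 2.07 against 2.59 to 2.98. The mitochondrial to cytosolic serine hydroxymethyltransferase ratio, Shmt2 to Shmt1, was 9.23 to 11.7 against 14.7 to 16.6. Ctps to Ctps2 was higher, at 9.87 to 10.3 with siSox9 and 7.92 to 8.52 with siNC, and so was Adss to Adssl1, at 5.04 to 5.45 against 3.50 to 3.76. Prps1 to Prps2 and Uck1 to Uck2 were lower without overlap, at 0.687 to 0.813 against 0.897 to 0.949 and at 0.909 to 0.952 against 0.983 to 1.05. The groups overlapped for Mthfd1 to Mthfd1l, Mthfd2 to Mthfd2l, Impdh2 to Impdh1 and Aldh1l2 to Aldh1l1. No test was run on these ratios, and each ratio is on the scale of the exon lengths behind the FPKM.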
